A study of Homo sapiens with 6 samples.

Results

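The NF-kB genes described here are the 5 subunits of the transcription factor (NFKB1, NFKB2, REL, RELA and RELB), 3 of its cytoplasmic inhibitors (NFKBIA, NFKBIB and NFKBIE) and 2 feedback regulators (TNFAIP3 and BIRC3), chosen by name. Of these 10 names, 9 were matched to at least 1 probe set that names that gene alone, out of 19775 genes read on the array; BIRC3 was not matched, and its signal is not analysed here. The 9 genes were covered by 20 probe sets. The cells were HMLE, derived from human mammary epithelium and immortalised, and RNA was read on 6 Affymetrix U133 Plus arrays with 1 array in each of 6 groups. In the Twist line, cells carried a pBabe-Twist retrovirus, which supplies the epithelial-mesenchymal transition factor Twist, and in the control line they carried a pBabe-shGFP retrovirus, a hairpin against a protein the cells lack. Each line was given Cmp302, a compound known only by this code, at levels titled 5 µM and 10 µM, or DMSO, its solvent. The treatment protocol gives 6 hours for every array, but the source names of the Cmp302 arrays give 2 µM throughout, with 4 h on one level and 8 h on the other, so whether the levels differ in dose or in time is not settled; the arrays are called by their titles. All 6 groups share the HMLE background and its medium with EGF, insulin and hydrocortisone, and the sources used here do not say whether either line was a clone or a pooled infection.

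NF-kB subunits pair into dimers that are held in the cytoplasm by IkB proteins until IkB kinase marks the IkB for destruction. Freed dimers enter the nucleus and switch on genes of inflammation and survival, among them genes of their own subunits and of the inhibitors NFKBIA and TNFAIP3, so that transcript levels of these genes are often read as a record of the pathway's activity. In the canonical arm the main dimer holds RELA and the product of NFKB1; in the non-canonical arm it holds RELB and the product of NFKB2. Arrays measure the transcripts only, not the phosphorylation, breakdown or location of the proteins.

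With 1 array per group a difference between arrays has no replicate check and its precision is unknown. Signals are in log2 units, and a gene was called higher or lower past a fixed 2-fold, which is 1 log2 unit, when at least 1 of the arrays compared exceeded a signal floor of 3.71. "Rose" and "fell" are kept for genes called by limma over all 6 arrays. The epithelial markers CDH1, EPCAM, KRT5 and ESRP1 lay at the floor on the 3 Twist-line arrays and between 11.96 and 13.38 on the 3 control-line arrays. KRT14 had 3.88 to 4.12 in the Twist line and 13.37 to 13.84 in the control line. Mesenchymal markers differed in their gap between the lines. ZEB1 had 12.72 to 13.16 in the Twist line and 5.93 to 6.61 in the control line. In the same order ZEB2 had 10.68 to 11.46 and 4.51 to 5.14, and PRRX1 had 12.62 to 12.94 and the floor. The control line also had high signals for VIM (13.20 to 13.81 and 10.98 to 11.68), CDH2 (11.98 to 12.14 and 10.75 to 10.95) and FN1 (13.49 to 13.60 and 13.24 to 13.31). TWIST1 itself had 11.57, 11.96 and 11.35 on the DMSO, 5 µM and 10 µM arrays in the Twist line and 10.70, 10.51 and 10.48 in the control line, under 2-fold apart on the DMSO and 10 µM arrays. Whether its probe set reads the introduced Twist was not tested. Of the blood cell markers, PTPRC, CD3E, LYZ and HBB lay at the floor on all 6 arrays, and CD14 reached 4.81 on the control-line DMSO array. For GAPDH and ACTB the arrays differed in how far the 3' probe set exceeded the middle one, a measure of RNA integrity and labelling. It was 0.955 on the Twist DMSO array, the highest of the 6, 0.355 at 5 µM and 0.445 at 10 µM in that line, and in the control line it was 0.280 under DMSO, 0.450 at 5 µM and 0.835 at 10 µM.

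The promoters of several members hold matches to the motif that NF-kB is known to bind, and they are shown because these genes are both parts and known targets of the pathway. Of the 10 named genes, 8 had promoter windows in the RefSeq table used (GRCh38.p14). Each window was read over the 250 bases before a gene start, and both strands were searched for the NF-kB consensus motif, which is 10 bases long and degenerate. A match was found for 7 of the 8 genes, against 6.28% of all 27305 genes with a window, and in 8 of their 13 windows, against 5.21% of all 35116 windows. Matches on both strands at a palindromic site overlap each other. The windows below run 5′ to 3′ along the gene, with the matched bases in capitals.
NFKBIA, chr14:35404750-35404999, minus strand: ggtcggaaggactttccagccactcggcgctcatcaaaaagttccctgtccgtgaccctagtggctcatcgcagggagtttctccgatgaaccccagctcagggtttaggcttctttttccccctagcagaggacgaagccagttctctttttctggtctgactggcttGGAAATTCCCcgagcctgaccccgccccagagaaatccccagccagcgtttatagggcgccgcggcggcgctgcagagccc
TNFAIP3, chr6:137867009-137867258, plus strand: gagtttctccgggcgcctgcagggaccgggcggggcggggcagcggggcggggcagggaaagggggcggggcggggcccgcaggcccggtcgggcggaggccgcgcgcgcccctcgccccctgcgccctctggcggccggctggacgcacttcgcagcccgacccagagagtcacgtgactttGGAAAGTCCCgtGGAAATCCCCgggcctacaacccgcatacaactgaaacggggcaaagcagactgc
NFKB1, chr4:102501109-102501358, plus strand: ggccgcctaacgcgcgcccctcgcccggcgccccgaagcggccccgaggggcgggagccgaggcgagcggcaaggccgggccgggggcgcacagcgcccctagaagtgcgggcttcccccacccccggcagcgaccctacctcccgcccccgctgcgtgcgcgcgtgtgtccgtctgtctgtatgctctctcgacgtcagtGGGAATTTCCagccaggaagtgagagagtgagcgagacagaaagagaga
NFKB2, chr10:102394328-102394577, plus strand: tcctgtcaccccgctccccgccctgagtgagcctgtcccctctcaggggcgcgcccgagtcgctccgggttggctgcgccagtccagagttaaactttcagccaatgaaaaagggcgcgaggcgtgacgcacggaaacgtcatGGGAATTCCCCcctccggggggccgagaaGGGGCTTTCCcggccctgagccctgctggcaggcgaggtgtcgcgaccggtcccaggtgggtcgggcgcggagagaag
REL, chr2:60881324-60881573, plus strand: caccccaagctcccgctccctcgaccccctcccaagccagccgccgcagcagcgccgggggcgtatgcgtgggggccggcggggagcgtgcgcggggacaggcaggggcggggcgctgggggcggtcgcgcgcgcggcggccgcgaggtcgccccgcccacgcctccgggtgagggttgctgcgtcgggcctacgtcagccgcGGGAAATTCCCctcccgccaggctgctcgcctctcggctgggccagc
NFKBIB, chr19:38899719-38899968, plus strand: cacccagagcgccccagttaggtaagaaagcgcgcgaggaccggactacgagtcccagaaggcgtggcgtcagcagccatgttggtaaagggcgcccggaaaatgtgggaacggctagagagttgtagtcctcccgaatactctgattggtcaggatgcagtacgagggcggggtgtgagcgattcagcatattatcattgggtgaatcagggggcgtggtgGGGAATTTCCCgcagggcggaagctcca
The NFKBIA match begins 81 bases before the start. TNFAIP3 had 2 matches, 67 and 55 bases before the start, and NFKB1 had 1 at 49 bases. A window of NFKB2 held an overlapping cluster that begins 107 bases before the start and another match at 78 bases. REL and NFKBIB carried sites at 47 and 28 bases, and the window of BIRC3, not shown, held 2. Neither of the 2 windows of RELA held these letters. A match describes the sequence only, and no binding was measured.

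In the Twist line most of these genes were higher with Cmp302. At the 5 µM level 7 of 9 were 2-fold or more above DMSO, against 4.26% of 11868 genes tested, and 0 were 2-fold lower, against 5.01%. At 10 µM 7 of 9 were again 2-fold higher, against 8.04% of 11931 genes, and 0 were lower, against 8.46%. The same 7 genes passed at both levels, and 8 of 9 were above DMSO at both by any amount, against 43.4% of genes; passing 2-fold at both levels was found for 3.96% of genes above the floor in this line. Their median change at 5 µM was 1.19 log2 units, and 1.90 at the higher level, against -0.00167 and -0.00833 over all genes tested. RELB had the widest change, 6.55-fold at 10 µM, and NFKBIB and REL were the 2 genes under 2-fold. In RNA from whole cultures, more cells with a transcript and more transcript per cell cannot be told apart. The 2 comparisons share the Twist DMSO array.

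Among the subunits, RELB and NFKB2, the pair of the non-canonical arm, had the widest changes at 10 µM, while at 5 µM NFKB1 had the widest, at 1.49. For each gene below, 3 signals are given per line, in the order DMSO, 5 µM and 10 µM. RELB measured 4.30, 5.75 and 7.01 log2 units in the Twist line and 4.76, 4.17 and 4.08 in the control line. It started close to the floor in both lines and only the treated Twist-line arrays stood clear of it. Its change in the Twist line was 1.45 and 2.71, which was rank 140 of 11868 genes at 5 µM and rank 52 of 11931 at 10 µM. With the floor raised to the 65th percentile of all signals the changes were 0 and 0.99. NFKB2, whose product p100 is both an inhibitor and the precursor of the subunit p52, had 7.02, 8.21 and 9.19 in the Twist line and 7.08, 7.02 and 6.99 in the control line. Its Twist DMSO signal lay among the 3 control-line signals, and both treated Twist-line arrays lay above all of these. The change was 2.28-fold at 5 µM and 4.51-fold at 10 µM.

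NFKB1 and RELA, the canonical pair, started lower in the Twist line and ended higher. NFKB1, which encodes p105 and its product p50, had 7.81, 9.30 and 9.71 log2 units in the Twist line and 9.26, 9.06 and 8.84 in the control line. The Twist DMSO array was the lowest of the 6 and both treated Twist-line arrays lay above every control-line array, at 5 µM by a narrow margin. The change in the Twist line was 1.49 and 1.90. RELA, the subunit p65 that activates transcription, had 10.84, 11.89 and 12.16 in the Twist line and 11.57, 11.34 and 11.07 in the control line. Its order of arrays was that of NFKB1, over a smaller span, with changes of 1.05 and 1.32.

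REL, encoding the subunit c-Rel, depended on the probe set. Its brightest one had 9.03, 8.60 and 8.80 log2 units in the Twist line and 10.12, 10.30 and 10.13 in the control line, so that all 3 Twist-line arrays lay below all 3 control-line arrays and the change with Cmp302 was -0.43 and -0.23. The 4 other probe sets of REL changed by 0.22 to 1.56 log2 units at 10 µM, and the 2 brighter of these were past 2-fold, at 1.56 and 1.35. On the brighter of the pair the signals were 7.30, 8.46 and 8.86 in the Twist line and 9.57, 9.66 and 9.40 in the control line. The SD between the 5 probe sets was 0.76 for the Twist-line change at 10 µM, the widest of the members. Which transcripts the probe sets detect was not tested.

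The inhibitors and the feedback enzyme moved alike, with 1 exception. NFKBIA, which encodes IkB-alpha, the inhibitor resynthesised first after activation, had 8.16, 9.73 and 10.34 log2 units in the Twist line and 9.83, 9.56 and 9.43 in the control line. TNFAIP3, encoding the ubiquitin-editing enzyme A20, had 8.87, 10.41 and 11.04 in the Twist line and 10.35, 10.17 and 9.92 in the control line. For both, the Twist DMSO array was the lowest of the 6 and the Twist 10 µM array the highest, and the Twist 5 µM array lay near the control-line DMSO array. NFKBIA was higher by 2.97-fold and 4.54-fold and TNFAIP3 by 2.90-fold and 4.51-fold.

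NFKBIE, encoding IkB-epsilon, had 5.53, 6.54 and 7.27 log2 units in the Twist line and 6.18, 6.17 and 6.09 in the control line. Its change was 1.01 at 5 µM, just past the threshold, and 1.74 at 10 µM. NFKBIB, encoding IkB-beta, had 7.05, 7.43 and 7.69 in the Twist line and 7.36, 7.08 and 7.09 in the control line. Both treated Twist-line arrays were its highest, but the change stayed under 2-fold, at 0.38 and 0.64.

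**Figure D1:**
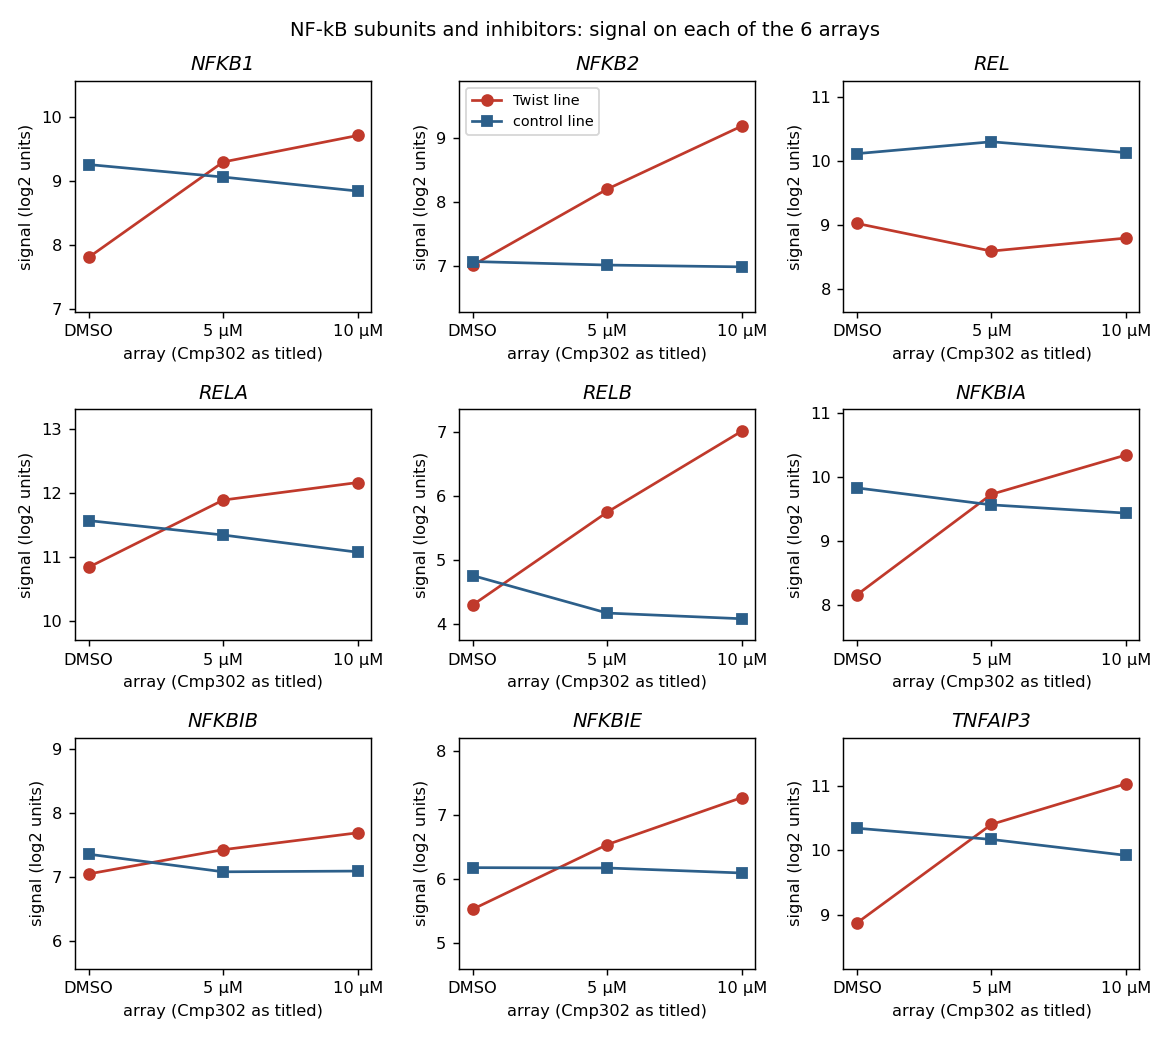
Signal in log2 units (vertical axis, the same span in each panel) of the brightest probe set of each of the 9 genes on the DMSO, 5 µM and 10 µM arrays; red circles are the Twist line and blue squares the control line, 1 array per point, with lines joining the arrays of a cell line. Apart from REL, each gene is lowest on the DMSO array among the Twist-line arrays and highest at 10 µM, while in the control line no gene differs from DMSO by more than 0.673.

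The order DMSO, 5 µM, 10 µM from low to high was found in the Twist line for 8 of 9 genes, against 29.4% of genes. The step between the Cmp302 levels was 1.26 log2 units for RELB and 0.98 for NFKB2, against 0.27 for RELA and 0.41 for NFKB1. Because the arrays differ in the 3' to middle gap, changes were also computed after subtracting what a gene's control-line arrays predict from that gap, called quality-matched here. At 10 µM they were 2.18 for RELB, 2.10 for NFKB2, 1.85 for NFKBIA, 1.79 for TNFAIP3, 1.66 for NFKBIE, 1.54 for NFKB1 and 0.89 for RELA. By that measure 6 of 9 genes stayed above 2-fold at 10 µM. At 5 µM 4 did, namely NFKB1, NFKB2, NFKBIA and TNFAIP3. That prediction also holds any response of the control line to Cmp302.

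Probe sets of a gene differed in size of change, and for REL, RELA and NFKBIA also in whether they passed 2-fold. Of the 20 probe sets, 19 exceeded the floor on 1 or more arrays and 18 on all 6; the third probe set of NFKB2 was below it throughout. In the Twist line 17 of 19 were above DMSO at both levels, 12 were 2-fold higher at 10 µM, and 1, the brightest of REL, was below DMSO at 10 µM. The second probe set of TNFAIP3 changed by 2.75 at 10 µM and the second of NFKB2 by 2.29, whereas those of NFKBIA and RELA changed by 1.22 and 0.65. At 5 µM these last 2 changed by 0.85 and 0.71, under 2-fold. The 3 probe sets of NFKBIB ranged from 0.06 to 0.64.

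**Figure D2:**
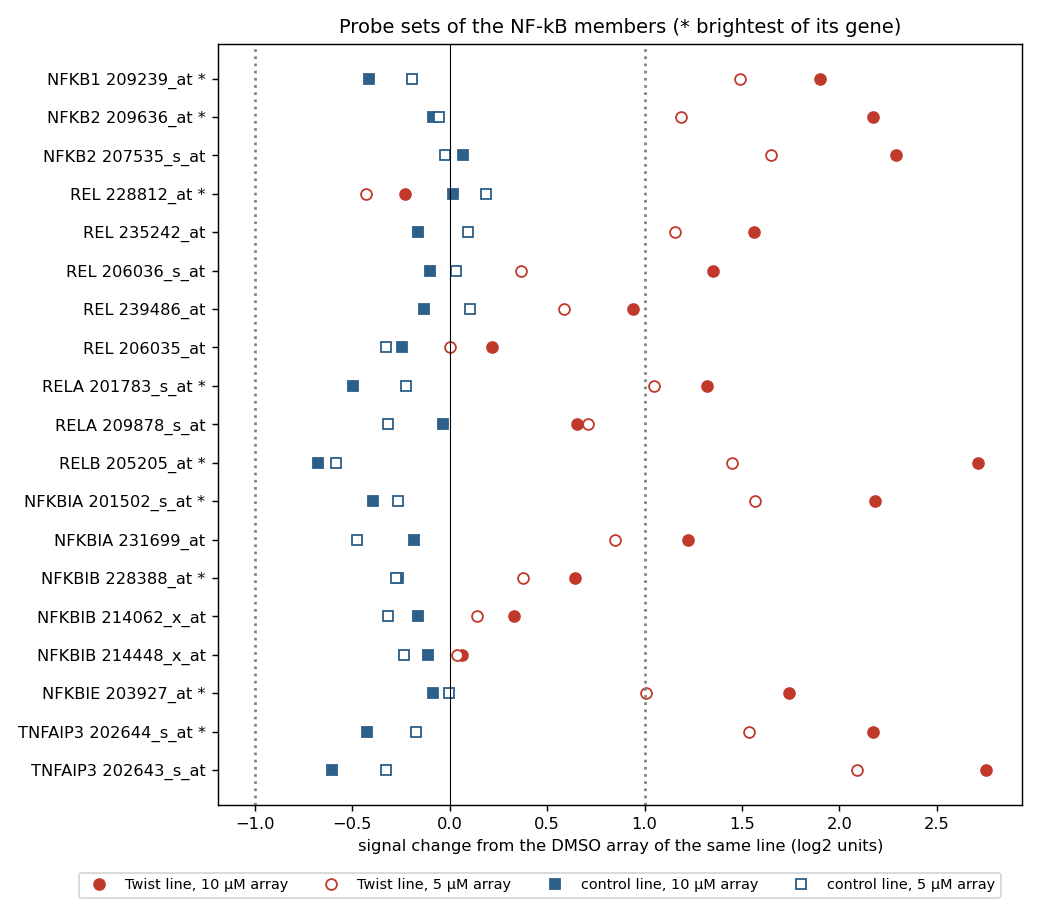
Change in signal from the DMSO array of the same line, in log2 units (horizontal axis), for the 19 probe sets that exceeded the floor on any array; red circles are the Twist line, blue squares the control line, filled at 10 µM and open at 5 µM, and dotted lines mark 2-fold. In the control line 0 probe sets pass the dotted lines, and in the Twist line 12 pass the upper one at 10 µM.

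The limma fit with line, level and their interaction asked whether signal changed with level in each line. In the Twist line 7 of 9 members rose at an adjusted p under 0.05, against 10.8% of 12478 genes, and 0 fell, against 11.4%. RELB rose by 1.36 ± 0.095 log2 units per level (SE, limma over 6 arrays, adjusted p = 0.00578). NFKB2 rose by 1.09 ± 0.10 (adjusted p = 0.00825), NFKBIE by 0.87 ± 0.096 (adjusted p = 0.0108) and TNFAIP3 by 1.09 ± 0.14 (adjusted p = 0.0140). NFKBIA, NFKB1 and RELA rose with adjusted p-values of 0.0154, 0.0222 and 0.0259, while NFKBIB, at 0.32 ± 0.11 (adjusted p = 0.0740), and REL, at -0.11 ± 0.13 (adjusted p = 0.556), were not called. With the median over probe sets REL was called, at 0.68 per level (adjusted p = 0.0248), and RELA was not (adjusted p = 0.0543). With 2 residual degrees of freedom, the error here is departure from a straight line and not replicate spread. Leaving out the Twist DMSO array, the Twist 10 µM array or any of the 3 control-line arrays left 1 residual degree of freedom. Then 0 of the 9 were called, and 0 among all genes. At an unadjusted p under 0.05 (limma) there were 7 members each time, and 1622 to 5246 genes. Without the Twist 5 µM array 7 were called, where 1523 genes were called higher and 1858 lower. That fit also has 1 residual degree of freedom, and its error comes from the 3 control-line arrays alone. With no filter on low signals 0 members were called, with 7 members and 4199 genes at an unadjusted p under 0.05 (limma).

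In the control line these genes lay close to DMSO, and mostly below it. At 5 µM 0 of 9 were 2-fold higher, against 0.0585% of genes, and 0 were 2-fold lower, against 0.0668%. At 10 µM the counts were again 0, against 0.2% higher and 0.259% lower, and 0.515% of genes were past 2-fold at either level. Below DMSO at both levels were 8 of 9, against 41.2% of genes, with REL the exception. The median change was -0.20 at 5 µM and -0.39 at 10 µM, against -0.015 and -0.0333 over all genes. RELB had the lowest values, -0.58 and -0.67, which were rank 144 and rank 300 from the lowest among 11968 and 11975 genes, and RELA followed at 10 µM with -0.49. The limma trend in this line was called for 0 members, with 0% of 12478 genes called in either direction; at an unadjusted p under 0.05 there was 1 member, RELB (-0.34 ± 0.095 per level, limma over 6 arrays, adjusted p = 0.621), and 937 genes. The 3' to middle gap went up over these 3 arrays in the same order, and its part in the shift was not tested.

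The response in the Twist line was set against that in the control line by the interaction term. Subtracting the control-line change from the Twist-line change gave, at 10 µM, 3.39 log2 units for RELB, 2.60 for TNFAIP3, 2.58 for NFKBIA, 2.32 for NFKB1, 2.25 for NFKB2, 1.83 for NFKBIE, 1.81 for RELA, 0.91 for NFKBIB and -0.25 for REL. The limma difference of trends was called higher in the Twist line for 4 of 9, against 0.729% of 12478 genes. It was called lower for 0, against 0.793%. The error of this term, as of the trends, is departure from a straight line and not replicate spread. Fits without 1 array have 1 residual degree of freedom. At an unadjusted p under 0.05 (limma) 8 of 9 were higher and 0 lower, against 2556 and 2372 of the 12478 genes. The called members were RELB (1.69 ± 0.13 log2 units per level, SE, limma over 6 arrays, adjusted p = 0.0351), NFKB2 (1.13 ± 0.15, adjusted p = 0.0407), NFKBIE (0.91 ± 0.14, adjusted p = 0.0473) and TNFAIP3 (1.30 ± 0.20, adjusted p = 0.0482). NFKBIA, NFKB1 and RELA lay just past the threshold, with adjusted p-values of 0.0506, 0.0543 and 0.0543, and REL was far from it (-0.12 ± 0.18, adjusted p = 0.65). Leaving out any 1 array other than the Twist 5 µM array gave 0 calls. At an unadjusted p under 0.05 (limma) there were then 3 to 7 members and 1045 to 5488 genes. Leaving out the Twist 5 µM array gave 7 calls, where 1117 genes were called higher and 1328 lower in place of 91 and 99. With the levels coded 0, 1 and 1, so that the Cmp302 arrays count alike, 5 were called: NFKB1, RELA, RELB, NFKBIA and TNFAIP3. Over all genes that coding called 1554 higher and 1739 lower.

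Between the lines the order of these genes turned over with treatment. Under DMSO all 9 were lower in the Twist line, against 50% of 12510 genes, with 0 that were 2-fold higher, against 11.9%, and 4 that were 2-fold lower, against 13.5%: NFKBIA by -1.67 log2 units, TNFAIP3 by -1.48, NFKB1 by -1.45 and REL by -1.09. NFKB2 differed by only -0.06. The median was -0.73, against -0.005 over all genes. The Twist DMSO array was the lowest of the 6 for 6 of the 9, against 21.7% of genes above the floor on any array, and it is the array with the highest 3' to middle gap. Quality-matched, 2 genes remained 2-fold lower, NFKBIA (-1.23) and REL (-1.05), with NFKB1 and TNFAIP3 at -0.97 and -0.98. By that measure RELB (0.25) and NFKB2 (0.03) were above 0, so the lower sign of all 9 did not hold. For NFKBIB 2 of the 3 probe sets were higher in the Twist line under DMSO, by 0.13 and 0.32.

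On the Cmp302 arrays, which leave that array out, REL alone was lower in the Twist line. At 5 µM NFKB2 (2.27-fold) and RELB (2.98-fold) were 2-fold higher, against 12.1% of 12454 genes, and REL was 2-fold lower (-1.71), against 12.6%. At 10 µM 5 of 9 were 2-fold higher, against 14.8% of 12484 genes, and REL was 2-fold lower (-1.33), against 14.1%. The 5 were RELB (7.60-fold), NFKB2 (4.58-fold), NFKBIE (2.26-fold), TNFAIP3 (2.17-fold) and RELA (2.12-fold). Quality-matched, 3 were 2-fold higher, with RELA at 0.75 and TNFAIP3 at 0.83. NFKBIA and NFKB1, both 2-fold lower under DMSO, differed by 0.91 and 0.87 and did not pass. Both treated Twist-line arrays lay above all 3 control-line arrays for 7 of 9 genes, against 34.9% of genes. NFKBIA was not among them, because its 5 µM signal of 9.73 lay under the 9.83 of the control-line DMSO array.

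With treatment as a factor, the limma line term called REL lower in the Twist line over the 6 arrays (-1.38 ± 0.22 log2 units, SE, adjusted p = 0.00813). That was 1 of 9, against 14.9% of 12478 genes, and 0 were called higher, against 13.7%. At an unadjusted p under 0.05 (limma) 0 members were higher as well, against 2374 genes. This term averages DMSO differences of one sign with Cmp302 differences of the other. Leaving out any 1 array leaves 1 residual degree of freedom. Without a DMSO array the error is only the gap between the 5 µM and 10 µM line differences, and not replicate spread. With either DMSO array left out, which leaves the 4 Cmp302 arrays to give the line term, 7 of 9 were called higher and REL lower, with NFKBIB not called (adjusted p = 0.0875 without the control-line DMSO array and 0.0809 without the Twist one, limma). Over all genes these fits called 3585 higher and 3704 lower without the control-line DMSO array, and 3584 and 3702 without the Twist one, in place of 1705 and 1854. RELB then differed by 2.25, NFKB2 by 1.69, RELA by 0.82, NFKBIE by 0.77, TNFAIP3 by 0.68, NFKB1 by 0.55 and NFKBIA by 0.54. Without the control-line 5 µM array or the Twist 5 µM array REL was not called (adjusted p = 0.0962 and 0.0924, limma) and RELB was (adjusted p = 0.00823 and 0.0200). Without the Twist 10 µM array both were called, RELB at 0.56 (adjusted p = 0.0258).

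**Figure D3:**
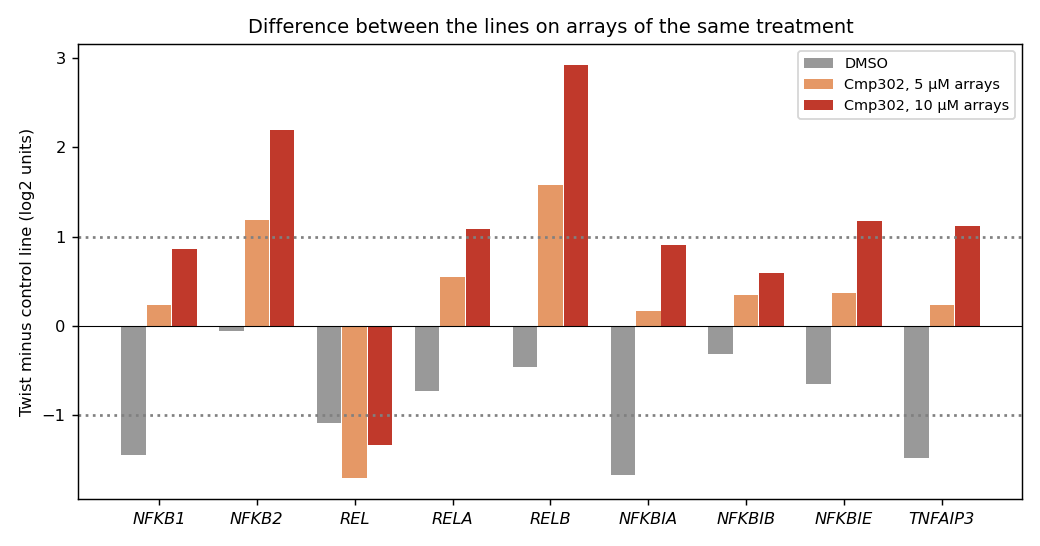
Signal in the Twist line minus that in the control line, in log2 units (vertical axis), on the DMSO (grey), 5 µM (orange) and 10 µM (red) arrays for each of the 9 genes; dotted lines mark 2-fold and each bar is the difference of 1 pair of arrays. All 9 grey bars are below 0, and for 8 genes both coloured bars are above 0, with RELB the tallest at 2.93.

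NFKB1, NFKBIA and TNFAIP3 had nearly the same profile. After each gene was centred on its own mean over the 6 arrays, NFKB1 and TNFAIP3 differed by 0.067 log2 units on average, NFKBIA and TNFAIP3 by 0.078 and NFKB1 and NFKBIA by 0.085, the closest of the 36 pairs. REL and RELB were the farthest apart, at 1.44. Among 12469 other genes, the 5 closest to NFKBIA were HYOU1, encoding a chaperone of the endoplasmic reticulum, at 0.071, FKBP2 at 0.115, AKNA at 0.122, SH3TC1 at 0.132 and the transcription repressor BHLHE40 at 0.15. For TNFAIP3 HYOU1 was again closest at 0.082, then FKBP2 at 0.110, BRD2, a bromodomain protein, at 0.118, AKNA at 0.120 and SH3TC1 at 0.132. The 3 probe sets of BRD2 disagreed, with changes of 0.28 to 2.01 at 10 µM in the Twist line. HYOU1 had 9.96, 11.77 and 12.15 in the Twist line and 11.56, 11.35 and 11.22 in the control line. Genes of the endoplasmic reticulum stress response were also higher with Cmp302 in the Twist line. At 10 µM 5 of 5 were 2-fold above DMSO there, against 8.04% of genes, and 0 of 5 in the control line, against 0.2%. DDIT3 had 6.16, 11.44 and 11.96 in the Twist line and 5.26, 5.62 and 5.38 in the control line. The part of these stress genes in the members' changes was not tested. These distances are over 6 arrays and carry no test.

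The rest of the pathway was read from lists chosen by role. The kinases upstream of IkB lay near the shares over all genes. Of 12 genes of the IKK complex and its kinases, 0 were 2-fold higher at 10 µM in the Twist line, against 8.04% of genes. At that level 1 was 2-fold lower, against 8.46%, and the median was 0.0217 log2 units. In the Twist-line trend 1 rose, MAP3K14, the kinase NIK of the non-canonical arm, and 2 fell, CHUK and TBK1, against 10.8% and 11.4% of genes. MAP3K14 had 4.32, 4.97 and 5.15 in the Twist line and 4.92, 4.79 and 4.72 in the control line. These signals lay near the floor, and its Twist-line changes of 0.65 and 0.83 were under 2-fold. Those of TBK1, -0.80 and -0.91, were under 2-fold too. CHUK, the catalytic subunit IKK-alpha, had 12.16, 11.12 and 11.01 in the Twist line and 11.21, 11.45 and 11.60 in the control line, lower on both treated arrays of the Twist line and higher on both of the control line. IKBKB, encoding IKK-beta, had 11.33, 11.12 and 11.24 in the Twist line and 10.28, 10.52 and 10.70 in the control line. Its 3 probe sets changed by -0.09 to 0.85 at 10 µM in the Twist line. Of the others with the widest range, MAP3K3 was higher in the Twist line (adjusted p = 0.0194, limma line term) and TAB3, an adaptor of the kinase TAK1, was lower (adjusted p = 0.0110).

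Of 19 receptors and adaptors measured, 1 was 2-fold higher at 10 µM in the Twist line, against 8.04% of genes, and 3 were lower, against 8.46%, with a median of 0.00167 log2 units. By the limma line term 5 were higher in the Twist line, namely IL1R1, TLR3, TLR4, TNFRSF1B and TRAF5, against 13.7% of genes, and 3 were lower, namely TLR2, TNFRSF11A and TRADD, against 14.9%. TLR4, the lipopolysaccharide receptor, had 9.86, 8.57 and 8.35 in the Twist line and lay at the floor on all 3 control-line arrays. Its 4 probe sets disagreed, with changes of -1.51 to 0.31 at 10 µM in the Twist line. Under DMSO they were higher in the Twist line by 1.22 to 6.15. IL1R1, the interleukin-1 receptor, had 10.82, 10.11 and 9.85 in the Twist line and 8.15, 8.40 and 8.01 in the control line. TLR2 was at the floor on the Twist DMSO array, with 4.54 and 4.47 on the treated ones, and had 6.28, 5.50 and 5.84 in the control line. TNFRSF11A, the receptor RANK, had 4.15, 3.73 and 3.78 in the Twist line and 6.77, 6.44 and 7.03 in the control line. In the Twist-line trend the adaptors IRAK2, TRAF1 and TRAF6 rose, against 10.8% of genes, and IL1RAP, TLR3 and TLR4 fell, against 11.4%. TRAF1 exceeded the floor on 2 arrays only, the treated Twist-line arrays, at 4.24 and 4.63. Its change at 10 µM was 0.92, under 2-fold.

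Most of the other IkB proteins and feedback regulators lay above DMSO in the Twist line, though few by 2-fold. At 10 µM in the Twist line 3 of 14 were 2-fold higher, against 8.04% of genes, and 1 was lower, against 8.46%, with a median of 0.52 log2 units. In the trend 3 of 14, COMMD1, OTUD7B and RBCK1, rose, against 10.8% of genes, and 1, ITCH, fell, against 11.4%. RBCK1, also called HOIL-1, a subunit of the linear ubiquitin ligase, had 10.78, 11.97 and 12.05 in the Twist line and 11.17, 10.79 and 10.76 in the control line. OTUD7B, a deubiquitinase, had 8.65, 8.88 and 9.90 in the Twist line and 8.97, 8.93 and 8.66 in the control line. Probe sets disagreed for these genes: at 10 µM those of RBCK1 ran from -0.24 to 1.27, those of OTUD7B from -0.12 to 1.25, and the 6 of ITCH, a ubiquitin ligase that acts with A20, from -2.94 to 1.46. SHARPIN, the partner of RBCK1 in that ligase, had 9.75, 9.36 and 9.15 in the Twist line and 8.93, 9.05 and 8.18 in the control line.

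In their change with Cmp302 in the Twist line, classical targets of NF-kB were the list most like the members. At 10 µM in the Twist line 9 of 22 measured were 2-fold higher, against 8.04% of genes. At that level 0 were lower, against 8.46%, and the median was 0.915 log2 units. In the limma trend 13 of 24 rose, against 10.8% of genes, and 0 fell, against 11.4%. The control-line trend called 0 of them, as it called 0 of all 12478 genes. The difference of trends was called higher for 1 of 24, CCL20, against 0.729% of genes and 4 of 9 members. By the line term 4 were higher in the Twist line, against 13.7% of genes, and 6 were lower, against 14.9%. The widest were IL6, with 4.08, 8.02 and 9.45 in the Twist line and the floor on the control-line arrays, and ICAM1, an adhesion molecule, with 4.84, 9.45 and 10.20 in the Twist line and 8.997, 8.81 and 8.92 in the control line. ICAM1's probe sets changed by 0.40 to 5.36 at 10 µM. IL1A and IL1B, the interleukin-1 genes, had 4.58 and 4.62 at 10 µM in the Twist line, against 10.30 and 9.47 in the control line. They rose with level in the Twist line (adjusted p = 0.0431 and 0.0350, limma) and still lay far below the control line.

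**Figure D4:**
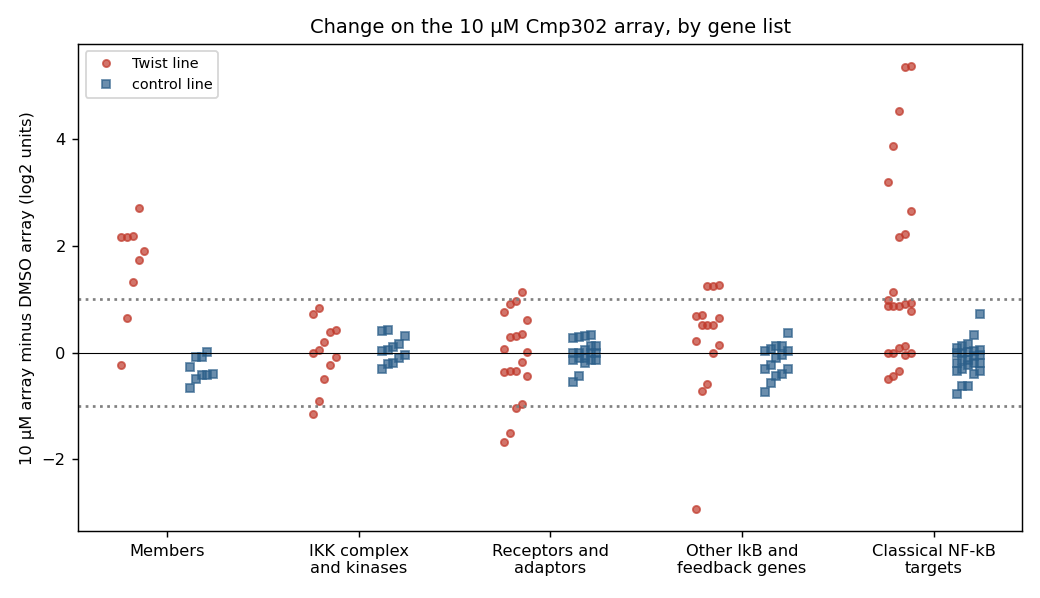
Change in signal on the 10 µM array from the DMSO array of the same line, in log2 units (vertical axis), for the 9 members and for the genes of 4 other lists that lay above the floor on at least 1 of the 6 arrays; red circles are the Twist line, blue squares the control line, each point is 1 gene, and dotted lines mark 2-fold. In the Twist line 7 of the 9 members, 9 classical targets and 0 kinases lie above the upper dotted line, against 8.04% of genes tested.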

How the data were processed

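Total RNA of 6 HMLE samples was hybridised to Affymetrix Human Genome U133 Plus arrays, 1 per group. The deposited values are log2 signals per probe set, judged from their range because the labels name no unit; GCOS 1.2 is listed per the submitters' processing notes, and the sources used here do not state how background, summarisation or normalization were done. The 62 control probe sets were left out of 54675. Arrays were shifted so that the brighter probe sets had a median log2 ratio of 0 to their mean, and signals under the median of all values were set to that floor. Probe sets with 1 gene in the platform annotation (41091) were used, with symbols updated through Entrez IDs; 1801 named several genes and 11721 none. The brightest probe set read each of 19775 genes. Changes are differences of log2 signals between single arrays. Fits used limma 3.58.1 in R 4.3.3 (signal trend in eBayes, two-sided, Benjamini-Hochberg at 0.05) on the 12478 genes that exceeded the floor on 2 or more arrays, and were tested on simulated data. Promoters are RefSeq windows. All 9 matched members were named, and of each other list the 4 genes with the widest range, plus the 5 nearest profiles to NFKBIA and TNFAIP3; further genes named as called by a fit or with a count were chosen after their values were seen. RIPK1, TRAF2, IRAK4, BCL3, ZC3H12A and CSF2 of the lists were not matched and are not analysed here. Alternatives are given in the closing section. The members and lists were chosen with earlier results of these data known.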

Additional observations from a re-analysis of the deposited data

Results flagged for a closer look

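In 4 members the limma interaction term over 6 arrays was called, with an error that is departure from a straight line and not replicate spread. These are not the 4 members that differed most between the lines. At 10 µM the uncalled NFKBIA (2.58) and NFKB1 (2.32) had wider differences of change than the called NFKB2 (2.25) and NFKBIE (1.83). The difference of trends, Twist line minus control line, was 1.69 log2 units per level for RELB, 1.13 for NFKB2, 0.91 for NFKBIE and 1.30 for TNFAIP3. For each, both treated Twist-line arrays lay above the Twist DMSO array and both treated control-line arrays lay at or below their DMSO array. Leaving out 1 array ended these calls except without the Twist 5 µM array. The limma adjusted p for RELB was 0.447 without the control-line DMSO array, 0.289 without the control-line 5 µM array, 0.413 without the control-line 10 µM array, 0.291 without the Twist DMSO array and 0.0584 without the Twist 10 µM array. For NFKB2 it was 0.501, 0.289, 0.461, 0.291 and 0.0524 in the same order.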

How the results depend on the processing

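Counts of members are given out of 9 unless stated. Past 2-fold at 5 µM in the Twist line were 7, with 4 when quality-matched and 4 of 7 genes without probe sets of suffix _x_at or _s_at. Under DMSO 4 differed between lines, with 2 when quality-matched. Higher in the Twist line at 10 µM were 5, with 3 when quality-matched and 3 of 7 genes without those probe sets, and the 1 lower became 0 with the median over probe sets. At 5 µM the 2 higher became 1 with the floor at the 65th percentile. For the difference of trends the count of 4 became 2 with the deposited scaling, with quantile normalization and with the median over probe sets. It was also 2 without the signal trend in eBayes, 1 of 8 with the floor at the 65th percentile and 0 without a filter. Without a filter 7 members and 3807 genes had an unadjusted p under 0.05 (limma). The Twist-line trend went to 0 of 9 without a filter, with adjusted p-values of 0.132 to 0.877 and 16 genes called in all. Leaving out 1 array at a time, the count ranged from 0 to 7 for the difference of trends and for the Twist-line trend, from 1 to 8 for the line term, and was 0 each time for the control-line trend. Fits on 5 arrays have 1 residual degree of freedom. Calls that came with a turned sign were REL in the Twist-line trend with the median over probe sets (0.68) and, in the line term without either DMSO array, NFKB1 (0.55), NFKBIA (0.54) and TNFAIP3 (0.68); without the control-line 10 µM array these were -0.61, -0.75 and -0.62. Uncalled values also turned: under DMSO RELB (0.25) and NFKB2 (0.03) when quality-matched, NFKB2 with quantile normalization (0.03) and NFKBIB with the median over probe sets (0.13). The median also turned REL's change in the Twist line to 0.37 at 5 µM and 1.35 at 10 µM and its difference of trends to 0.73. Values near 0 in the line term and control line, and REL's trend terms without a DMSO array, turned as well without being called. Over all genes the difference of trends called 91 higher and 99 lower, against 1554 and 1739 with the levels coded 0, 1 and 1, and 6 and 4 without a filter. The Twist-line trend called 1352 and 1421, against 8 and 8 without a filter. The control-line trend called 0 and 0, against 3 and 11 without a filter. No paired analysis was possible because each group has 1 array and the labels number no replicates. Signals near the floor, as for RELB in the control line, give changes that are compressed by it: with the floor at the 65th percentile its change at 10 µM in the Twist line was 0.99.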
